A study of Mus musculus with 15 samples.

Results

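The mRNA of receptors that place T cells in lymphoid tissue or hold them at a contact were followed through activation, p110δ inhibition and IL-2 withdrawal in mouse CD8+ T cells. They were the sphingosine 1-phosphate (S1P) receptors S1pr1 and S1pr4, the chemokine receptors Ccr7 and Cxcr4, the integrin chains Itgb7, Itga4, Itgae and Itgal, and the hyaluronan receptor Cd44. These 9 genes were chosen by symbol, and all 9 are in both deposited tables, out of 11836 mRNA listed in either. The first table held 11262 mRNA in 9 libraries and the second 11211 mRNA in 6 libraries. All cells carried the P14 TCR transgene, which gives them a single specificity for a peptide of lymphocytic choriomeningitis virus. Naïve cells were taken from lymph nodes and sorted with low CD44 as one of the criteria, so the protein product of Cd44 was part of the gate. TCR activated cells received antigenic peptide at 100 ng/ml for 24 h, together with IL-12 at 2 ng/ml and IL-2 at 20 ng/ml. TCR activated cells with PI3Kdi were treated alike and also received 10 µM of IC87114, an inhibitor of the p110δ catalytic subunit of PI3K, whereas DMSO was the vehicle without it. Both kinds of activated cell were sorted as live CD8+ cells. According to the methods, the mice of the first table were females of 9 to 13 weeks, and lymph node cells of 3 mice were pooled for each of 3 replicates and split over the 3 conditions. The second table was made from cytotoxic T lymphocytes (CTL) that were activated for 48 h, expanded for 4 days in IL-2 at 20 ng/ml, washed on day 6 and then kept for 24 h either in IL-2 or without it, with 3 replicates each and no sort stated. The treatment labels of replicates 2 and 3 of the CTL in IL-2 name other interleukins, and these libraries were placed by their titles. Levels are FPKM, read counts scaled to library size and exon length, which allows comparison between genes within a library. The reads behind each library are not given, so no counting error could be attached to a level. Errors given with ± are the SD of 3 replicates, whereas standard errors and confidence intervals of fold changes come from the limma fits described below.

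A naïve T cell enters a lymph node by answering CCR7 ligands and by arresting through the integrin αLβ2 (LFA-1), and it leaves along a gradient of S1P that it senses through S1PR1. The β7 chain pairs with α4 to bind MAdCAM-1 on vessels of the gut, or with αE (CD103) to bind E-cadherin on epithelium, and CD44 binds hyaluronan and is a customary marker of cells that have met antigen. The transcription factor KLF2 is known as an activator of S1pr1, and FOXO1, which PI3K signalling through AKT keeps out of the nucleus, as an activator of Klf2 and Ccr7.

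The upstream sequences of 3 genes are shown because their mRNA were the 3 that passed the limits under PI3Kdi, S1pr4 and Itgb7 upwards and Cd44 downwards, and the choice was made after these values were seen. They are RefSeq sequences of GRCm38.p6 on the minus strand, printed 5′ to 3′ up to the transcription start, with the window of Itgb7 ended where its annotated exon begins. Capitals mark CCACCC or its reverse complement GGGTGG, a short element of the kind that KLF proteins bind.
S1pr4, chr10:81500138-81500387: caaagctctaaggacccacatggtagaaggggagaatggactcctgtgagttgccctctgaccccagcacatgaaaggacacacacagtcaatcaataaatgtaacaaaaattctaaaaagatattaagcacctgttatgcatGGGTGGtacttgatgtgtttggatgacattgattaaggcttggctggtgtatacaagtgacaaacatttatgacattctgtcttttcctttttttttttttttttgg
Itgb7, chr15:102231945-102232185: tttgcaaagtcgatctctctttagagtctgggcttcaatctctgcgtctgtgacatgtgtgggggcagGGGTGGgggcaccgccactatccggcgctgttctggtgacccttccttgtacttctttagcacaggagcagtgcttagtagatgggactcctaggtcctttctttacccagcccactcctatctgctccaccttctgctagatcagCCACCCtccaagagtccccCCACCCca
Cd44, chr2:102901666-102901915: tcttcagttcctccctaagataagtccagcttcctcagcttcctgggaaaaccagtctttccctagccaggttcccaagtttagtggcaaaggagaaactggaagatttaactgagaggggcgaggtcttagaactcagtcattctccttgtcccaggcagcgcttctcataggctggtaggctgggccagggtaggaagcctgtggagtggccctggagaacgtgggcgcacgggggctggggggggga
The table of upstream sequences held 5 of the 9 genes. The element occurred 3 times in the window of Itgb7, 1 time in that of S1pr4, 1 time in that of Itga4 and 0 times in those of Cd44 and Cxcr4. Of the 32851 windows in the table, each read over 250 bases upstream of the start, 28.1% held it. The forkhead element GTAAACA, also searched on both strands, was in none of the 5 windows and in 3.17% of all windows. Such matches describe letters and not binding. On GRCm38, the assembly called mm10, GENCODE M21 places S1pr1 at chr3:115710433-115715072 (minus strand), S1pr4 at chr10:81497747-81500132 (minus strand), Ccr7 at chr11:99144196-99155077 (minus strand) and Cxcr4 at chr1:128588199-128592293 (minus strand). Of the integrin genes it places Itgb7 at chr15:102215995-102231944 (minus strand), Itga4 at chr2:79255426-79333123 (plus strand), Itgae at chr11:73090583-73147446 (plus strand) and Itgal at chr7:127296260-127335138 (plus strand), and the last gene, Cd44 at chr2:102811141-102901665 (minus strand).

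In naïve cells Itgb7 was the most abundant of the 9 mRNA, at 345 ± 7.92 FPKM. It was followed by S1pr1 at 237 ± 31.8 FPKM, Ccr7 at 182 ± 8.69 FPKM and Itgal at 160 ± 5.09 FPKM. Lower levels were found for S1pr4 at 76.2 ± 3.13 FPKM, Itgae at 61.9 ± 1.13 FPKM, Itga4 at 42.6 ± 4.72 FPKM and Cxcr4 at 33.2 ± 3.45 FPKM. Cd44 was last at 7.56 ± 0.46 FPKM. No neighbours in this order had overlapping replicate ranges. With PI3Kdi, Ccr7 led and Itgb7 and Itgal overlapped behind it. After activation without the inhibitor the order was led by Ccr7, Itgal and Cd44, and the ranges of S1pr4 and S1pr1, and of S1pr1 and Itga4, overlapped. In CTL in IL-2, Itgal and Itgb7 led, and S1pr1 and Itgae were last. In CTL without IL-2 the levels of Itga4, S1pr1, S1pr4 and Ccr7 stood together, each overlapping the next.

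**Figure D1:**
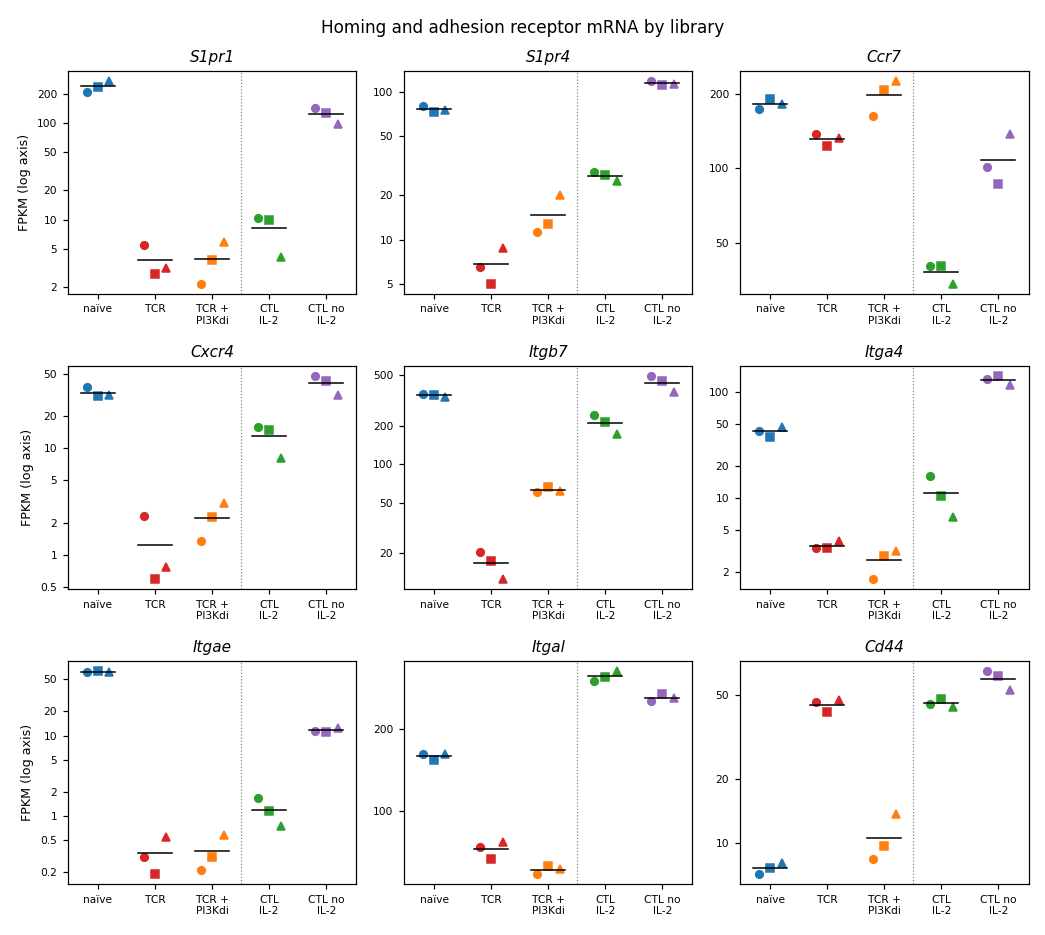
FPKM of each receptor mRNA (log axis, one panel per gene) in the 3 groups of the first table and the 2 groups of CTL. Symbols are replicates 1 (circle), 2 (square) and 3 (triangle), lines are means, and the dotted line separates the tables, which were normalised separately. Every receptor mRNA except Cd44 was lower in the TCR activated libraries than in the naïve ones, and all but Itgal and Cd44 were more than 2-fold higher in CTL without IL-2.

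TCR activation changed 8 of the 9 mRNA, 7 lower and 1 higher, in a test in which 48.7% of all 11262 mRNA changed, 23.7% lower and 25.0% higher. Changed means an adjusted p under 0.05 in limma, fitted to log2(FPKM + 0.1) with Benjamini-Hochberg adjustment over all mRNA of a table, and a fold change above 2 or below 0.5. Fold changes are on this log2(FPKM + 0.1) scale, which understates the change of weak mRNA. The median log2 fold change was -3.53 over the 9 mRNA and 0.0054 over all mRNA. The comparison asks how the receptors of a resting cell differ a day after antigen. Naïve cells were sorted without culture, so antigen, cytokines and time in culture cannot be told apart in it. The PI3Kdi group asks which receptors are altered when p110δ is inhibited at the same time. Under PI3Kdi, 3 of the 9 mRNA changed against TCR activation alone, 2 higher and 1 lower, while 5.14% of all mRNA changed, 3.04% higher and 2.10% lower. Both comparisons use the same TCR activated libraries, so their fold changes are not independent. When activation under PI3Kdi was set against naïve cells, 7 of the 9 mRNA were lower and 0 higher, with 45.0% of all mRNA changed and 21.3% lower. Scaling the libraries to a common median moved the median log2 fold change of all mRNA from 0.0054 to 0.12 for TCR activation, and none of these calls changed under it. FPKM is scaled to library size, so a lower level is a smaller part of the RNA of a library. It can come from fewer cells of a type, from less of the mRNA per cell or from more of other RNA. These cannot be told apart.

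S1pr1, the receptor for exit from lymph nodes, stood at 207, 235 and 270 FPKM in the naïve libraries and at 5.44, 2.76 and 3.16 FPKM after TCR activation. The groups were far apart, and the level left was 1.60% of the naïve mean. With activation S1pr1 fell by 5.99 on the log2 scale (standard error 0.32, limma, adjusted p = 1.3e-08). With PI3Kdi the libraries held 2.18, 3.80 and 5.89 FPKM, a range that contains the TCR activated one. The difference between PI3Kdi and TCR activation alone was 0.01 on the log2 scale (95% confidence interval -0.69 to 0.72, limma, adjusted p = 0.98). Its sign turned with the processing, to -0.01 under median scaling, -0.20 without replicate 2 and -0.42 without replicate 3.

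S1pr4, a second S1P receptor found mainly on blood cells, was at 79.6, 73.5 and 75.5 FPKM in naïve cells and at 6.57, 5.07 and 8.82 FPKM after activation. It fell by 3.50 on the log2 scale (standard error 0.22, limma, adjusted p = 4.5e-08). With PI3Kdi S1pr4 had 11.4, 12.8 and 20.1 FPKM, each library above all 3 without the inhibitor. The rise was 1.09 on the log2 scale (standard error 0.22, limma, adjusted p = 0.0062), or 2.13-fold. This brought the mean from 8.95% to 19.4% of the naïve level. The call of S1pr4 was close to the limits: without replicate 2 the log2 fold change was 0.98 (limma, adjusted p = 0.093), and with a pseudocount of 1 it was 1.00 and just under the fold limit.

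The balance of both S1P receptors was taken as the share of S1pr1 in the summed S1pr1 and S1pr4 FPKM. S1pr1 made up 75.5% ± 3.02 in naïve, 35.6% ± 9.47 in TCR activated and 20.5% ± 3.85 in PI3Kdi libraries. In each of the 3 replicates the share was lower with PI3Kdi than without, and the groups did not overlap, with a difference of -15.1 percentage points (exact two-sided permutation test, p = 0.1, adjusted p = 0.15 over 12 share comparisons). With 3 against 3 libraries this test cannot go below 0.1. The size of the difference rested on replicate 1, since it was -8.04 percentage points without it, against -16.4 without replicate 2 and -20.8 without replicate 3.

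Ccr7, whose product answers the chemokines CCL19 and CCL21 of the T cell zone, was the only receptor mRNA that activation did not change 2-fold. Naïve libraries held 174, 191 and 182 FPKM and TCR activated libraries 137, 123 and 133 FPKM. The groups did not overlap, but the log2 fold change was -0.48 (standard error 0.11, limma, adjusted p = 0.0023), short of the fold limit. With PI3Kdi the levels were 162, 207 and 225 FPKM, above every library without it and overlapping the naïve ones. Against TCR activation alone the log2 fold change of Ccr7 was 0.59 (standard error 0.11, limma, adjusted p = 0.0053), which also stayed under the fold limit, and against naïve cells it was 0.11 (95% confidence interval -0.14 to 0.36, limma, adjusted p = 0.39).

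Cxcr4, the receptor for CXCL12 of bone marrow and lymphoid stroma, was at 37.2, 31.1 and 31.3 FPKM in naïve cells and at 2.32, 0.60 and 0.78 FPKM after TCR activation. It fell by 4.86 with activation on the log2 scale (standard error 0.41, limma, adjusted p = 5.3e-07). In the presence of PI3Kdi it had 1.36, 2.27 and 3.05 FPKM, and TCR activated replicate 1 lay inside this range while replicates 2 and 3 lay below it. Across all replicates the log2 fold change with PI3Kdi was 0.96 (95% confidence interval 0.06 to 1.85, limma, adjusted p = 0.13). Without replicate 1 it was 1.80 (limma, adjusted p = 0.0025), which would pass the limits. As a share of summed Ccr7 and Cxcr4 FPKM, Ccr7 was 84.6% ± 1.93 in naïve cells, 99.1% ± 0.655 in activated cells and 98.9% ± 0.252 with PI3Kdi. The share was higher in all 3 TCR activated libraries than in the naïve ones (exact two-sided permutation test, p = 0.1, adjusted p = 0.15). The difference of -0.17 percentage points between PI3Kdi and TCR activation alone was within the replicate spread (exact two-sided permutation test, p = 0.7, adjusted p = 0.7).

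Among the integrin chains, Itgb7 fell from 353, 345 and 338 FPKM in naïve cells to 20.5, 17.4 and 12.7 FPKM after activation, a log2 fold change of -4.38 (standard error 0.14, limma, adjusted p = 2.7e-10). With PI3Kdi the libraries had 60.2, 66.3 and 61.1 FPKM, all above those without it and all below the naïve ones. Itgb7 was 3.77-fold higher with PI3Kdi (log2 fold change 1.91, standard error 0.14, limma, adjusted p = 1.2e-05), and within each same-numbered pair the ratio lay between 2.94 and 4.82. The mean stood at 4.87% of the naïve level without the inhibitor and at 18.1% with it.

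Neither α chain that pairs with β7 was called higher with PI3Kdi. Itga4 had 43.3, 37.5 and 46.9 FPKM in naïve cells, 3.39, 3.40 and 3.94 FPKM after activation and 1.74, 2.84 and 3.20 FPKM with PI3Kdi. Itga4 fell by 3.53 with activation on the log2 scale (standard error 0.20, limma, adjusted p = 1.8e-08). All 3 libraries with PI3Kdi were below all 3 without it, and the log2 fold change of -0.49 did not pass the test (95% confidence interval -0.92 to -0.06, limma, adjusted p = 0.11). Itgae, which encodes CD103, kept the smallest part of its naïve mean among the 9, 0.56%, falling from 60.9, 63.1 and 61.6 FPKM to 0.31, 0.19 and 0.54 FPKM. Its log2 fold change was -7.19 (standard error 0.31, limma, adjusted p = 2.5e-09), or -5.55 with a pseudocount of 1. With PI3Kdi its libraries held 0.21, 0.31 and 0.58 FPKM, which overlaps the TCR activated range, and the log2 fold change of 0.06 had a 95% confidence interval of -0.63 to 0.75 (limma, adjusted p = 0.92). Leaving out replicate 2 turned this sign, to -0.16.

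Itgae was the larger part of the summed Itgae and Itga4 FPKM in naïve cells, with 59.3% ± 3.06, and the smaller part after activation, with 8.57% ± 3.38 without and 12% ± 2.95 with PI3Kdi. No TCR activated library reached a naïve one, with a difference of -50.7 percentage points (exact two-sided permutation test, p = 0.1, adjusted p = 0.15). The model of Itga4 overlaps 1124 exon bases of Cerkl on the opposite strand, and whether the counting used strand is not stated. Cerkl had at most 1.70 FPKM in the first table and 2.55 FPKM in the CTL. Haspin, which lies on the strand opposite Itgae (Gsg2 in the tables), shares no exon bases with it and had 1.30 ± 0.123 FPKM in naïve and 13.9 ± 2.00 FPKM in TCR activated cells.

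Itgal, the α chain of LFA-1, was at 162, 154 and 163 FPKM in naïve cells, at 73.8, 66.5 and 76.6 FPKM after TCR activation and at 58.7, 63.0 and 61.0 FPKM with PI3Kdi. It kept 45.3% of its naïve mean after activation, a log2 fold change of -1.14 (standard error 0.08, limma, adjusted p = 8.8e-08). The libraries with PI3Kdi were all below those without it, by -0.25 on the log2 scale (95% confidence interval -0.42 to -0.08), which missed the test (limma, adjusted p = 0.0502). Itgb2, the β chain that αL pairs with and a gene named here after its values were seen, also fell with activation, from 240 ± 16.4 to 74.2 ± 7.40 FPKM (log2 fold change -1.69, limma, adjusted p = 1.3e-08). Itgb1, the other partner of α4 and named for the same reason, rose from 24.6 ± 1.70 to 99.8 ± 1.86 FPKM (log2 fold change 2.02, limma, adjusted p = 7.4e-10). With PI3Kdi Itgb1 had 54.5 ± 0.37 FPKM, a log2 fold change of -0.87 against TCR activation that was under the fold limit (limma, adjusted p = 3.1e-05).

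Cd44 went the other way. Its naïve libraries, gated on low CD44 protein, had 7.10, 7.55 and 8.02 FPKM and its TCR activated libraries 46.2, 41.5 and 47.1 FPKM. The groups were separated by a log2 fold change of 2.56 (standard error 0.15, limma, adjusted p = 3.6e-08). In cells activated with PI3Kdi it had 8.34, 9.67 and 13.6 FPKM, below every library without the inhibitor and above every naïve one. With PI3Kdi Cd44 fell by 2.11 on the log2 scale (standard error 0.15, limma, adjusted p = 1.2e-05), a comparison of cells in which CD44 was no part of the sort. The remaining difference from naïve cells was 0.45 on the log2 scale (95% confidence interval 0.10 to 0.79, limma, adjusted p = 0.020) and did not reach the fold limit.

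**Figure D2:**
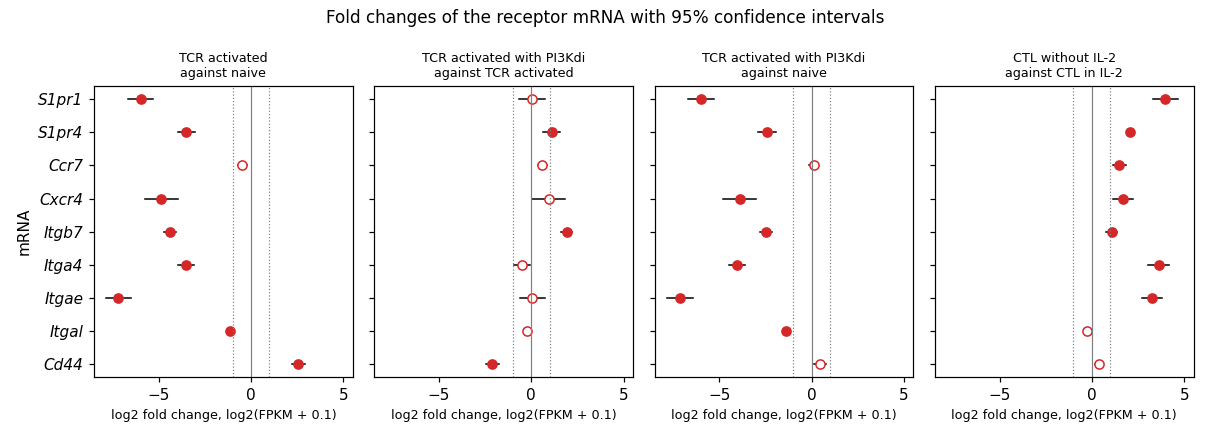
Log2 fold change of each receptor mRNA on the log2(FPKM + 0.1) scale in the 4 comparisons, with 95% confidence intervals from limma that are not adjusted for multiple tests. Filled circles passed both limits, open circles did not, and dotted lines mark the 2-fold limits. Under PI3Kdi only S1pr4, Itgb7 and Cd44 are filled, and without IL-2 only Itgal and Cd44 are open.

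The replicates were not alike in these genes. Replicate 1 of the PI3Kdi group was the lowest of its group for 9 of the 9 mRNA and replicate 3 the highest for 7. Replicate 2 of the TCR activated cells was the lowest for 7, and replicate 3 of the CTL in IL-2 the lowest for 8. These orders were counted over the 9 mRNA only, so whether they are particular to these genes was not tested. The coefficient of variation reached 76.7% for Cxcr4 in TCR activated cells, while in naïve cells it was at most 13.4%, for S1pr1.

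In CTL, removal of IL-2 for 24 h raised 7 of the 9 receptor mRNA and lowered 0. Among all 11211 mRNA, 28.2% changed, 14.3% higher and 13.9% lower. The median log2 fold change was 1.69 over the 9 mRNA and -0.00090 over all mRNA. The comparison asks which receptors a CTL carries once the cytokine is gone. Both groups were unlike the first table in culture time and normalisation, so levels between the tables are given side by side without a test.

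The receptors for S1P are given first. S1pr1 had 10.3, 9.92 and 4.14 FPKM in CTL in IL-2 and 142, 127 and 96.5 FPKM without it, a log2 fold change of 3.98 (standard error 0.31, limma, adjusted p = 3.2e-06) or 15.8-fold. Its mean without IL-2, 122 ± 23.1 FPKM, stands beside 237 ± 31.8 FPKM in naïve cells. S1pr4 went from 28.8, 27.6 and 25.0 FPKM to 118, 111 and 113 FPKM, a log2 fold change of 2.07 (standard error 0.08, limma, adjusted p = 1.4e-07). For S1pr4 the mean without IL-2 was 114 ± 3.53 FPKM, beside 76.2 ± 3.13 FPKM in naïve cells. The share of S1pr1 in the sum of both went from 22.3% ± 7.0 to 51.3% ± 4.56 without overlap of the groups, a difference of 29.0 percentage points (exact two-sided permutation test, p = 0.1, adjusted p = 0.15).

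Both chemokine receptors also rose. Ccr7 stood at 40.4, 40.1 and 34.1 FPKM in IL-2 and at 101, 86.5 and 137 FPKM without it (log2 fold change 1.48, standard error 0.15, limma, adjusted p = 2.1e-05). In the same libraries Cxcr4 was at 16.0, 14.8 and 8.10 FPKM and at 47.5, 42.9 and 31.9 FPKM (log2 fold change 1.69, standard error 0.24, limma, adjusted p = 0.00018). The share of Ccr7 in their sum did not move beyond the replicates, from 75.2% ± 4.96 to 72.0% ± 7.91 (exact two-sided permutation test, p = 0.6, adjusted p = 0.65).

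Of the integrin chains, Itga4 rose without IL-2 from 16.1, 10.6 and 6.64 FPKM to 133, 141 and 116 FPKM (log2 fold change 3.62, standard error 0.26, limma, adjusted p = 2.0e-06). The mean of 130.06 FPKM stands beside 42.6 FPKM in naïve cells. Itgae had 1.68, 1.16 and 0.74 FPKM in IL-2 and 11.4, 11.2 and 12.5 FPKM without it (log2 fold change 3.25, standard error 0.24, limma, adjusted p = 2.5e-06), far from the 61.9 FPKM of naïve cells. Both α chains rose, and the share of Itgae in their sum was 9.79% ± 0.292 in IL-2 and 8.32% ± 1.27 without it (exact two-sided permutation test, p = 0.2, adjusted p = 0.27).

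Itgb7 was already high in CTL in IL-2, at 241, 214 and 171 FPKM, and reached 488, 447 and 368 FPKM without it. The log2 fold change was 1.06 (standard error 0.14, limma, adjusted p = 0.00011), just past the fold limit, with ratios of 2.02 to 2.15 within same-numbered pairs. Itgal differed little, with 303, 312 and 328 FPKM in IL-2 and 254, 269 and 262 FPKM without it. All libraries without IL-2 were lower, and the log2 fold change of -0.26 (standard error 0.07, limma, adjusted p = 0.0091) was under the fold limit. Cd44 had 45.2, 47.7 and 43.7 FPKM in IL-2 and 64.7, 61.7 and 52.5 FPKM without it, again without overlap and under the fold limit (log2 fold change 0.38, standard error 0.09, limma, adjusted p = 0.0043). Its level in CTL in IL-2, 45.6 ± 2.02 FPKM, stands beside 45.0 ± 2.99 FPKM in TCR activated cells.

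**Figure D3:**
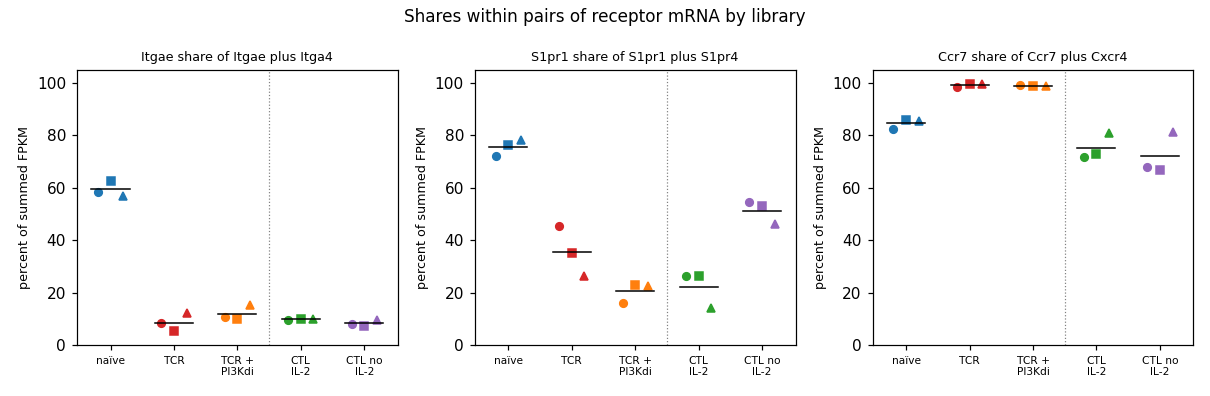
Share of one receptor in the summed FPKM of a pair of receptors, in percent, for each library. Symbols are replicates 1 (circle), 2 (square) and 3 (triangle) and lines are means. The Itgae share was 56.8% to 62.7% in naïve libraries and at most 15.3% in all others, whereas the S1pr1 share had its lowest means with PI3Kdi and in CTL in IL-2.

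Klf2, Foxo1 and Cd69 were followed alongside, for their known part in homing. Klf2 went from 226 ± 34.1 to 0.743 ± 0.621 FPKM on activation, and stood at 14.4 ± 5.09 FPKM with PI3Kdi (log2 fold change 4.28, standard error 0.40, limma, adjusted p = 5.9e-05). Klf2 rose with the inhibitor, as did S1pr4 and Itgb7, while S1pr1 was called neither way. Without IL-2, Klf2 rose from 2.43 ± 0.112 to 35.4 ± 10.9 FPKM (log2 fold change 3.76, limma, adjusted p = 5.6e-07). Foxo1 had 79.6 ± 2.57 FPKM in naïve cells, 16.7 ± 1.56 FPKM after activation and 14.4 ± 0.196 FPKM with PI3Kdi. It was called lower on activation, but not between the activated groups, and rose in CTL without IL-2 from 15.3 ± 1.48 to 35.4 ± 3.26 FPKM (log2 fold change 1.20, limma, adjusted p = 6.0e-06). Cd69, whose product takes S1PR1 off the cell surface, was at 51.8 ± 6.53, 46.6 ± 20.9 and 55.5 ± 15.0 FPKM in the 3 groups of the first table with no call. In CTL its mRNA fell from 51.9 ± 1.17 to 11.7 ± 0.493 FPKM without IL-2 (log2 fold change -2.14, limma, adjusted p = 1.1e-07), in the libraries in which S1pr1 rose.

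**Figure D4:**
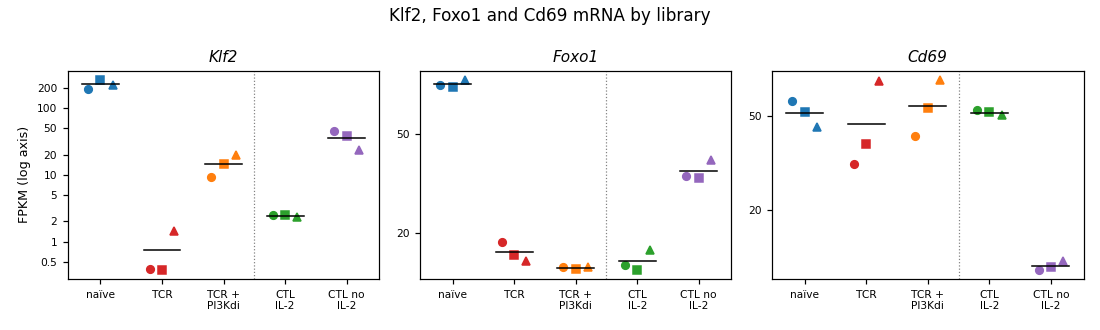
FPKM (log axis) of Klf2, Foxo1 and Cd69 in each library, with symbols for replicates 1 (circle), 2 (square) and 3 (triangle), means as lines and the tables separated by the dotted line. Klf2 is higher with PI3Kdi than after TCR activation alone, Foxo1 is not, and Cd69 was called lower only in CTL without IL-2.

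The wider machinery of homing was described with 9 lists of genes. Their median log2 fold changes ran from -1.92 to 0.75 on activation, from -0.17 to 0.69 with PI3Kdi and from -0.05 to 0.95 without IL-2, with medians of all mRNA near 0 in each. The counts of each list stand beside the shares of all mRNA that changed, 48.7% on activation, 5.14% with PI3Kdi and 28.2% without IL-2. Among 11 other integrin chains in the first table, 4 were lower and 2 higher after TCR activation, and 0 changed with PI3Kdi. Among 16 other integrin chains of CTL, 5 were higher and 2 lower without IL-2. Of 31 genes that switch integrins on through talin, kindlin and Rap1, activation lowered 14 and raised 3, with a median log2 fold change of -0.97, and 1 of them rose with PI3Kdi. Without IL-2, 5 of 30 rose and 1 fell. The share called was 54.8% on activation and 3.23% with PI3Kdi, near those of all mRNA, and 20% without IL-2, under that of all mRNA. In both settings Rapgef6, an exchange factor for Rap1, was higher: 46.9 ± 6.47 against 18.4 ± 1.08 FPKM with PI3Kdi, and 41.9 ± 5.63 against 18.0 ± 1.98 FPKM without IL-2.

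Other S1P receptors and genes of S1P handling, 8 in each table, gave 1 higher and 2 lower on activation, 0 calls with PI3Kdi and 2 lower without IL-2. These are shares of 37.5%, 0% and 25% of only 8 genes, beside 48.7%, 5.14% and 28.2% of all mRNA. Of 11 other chemokine receptors in the first table, 5 were higher and 2 lower on activation, and 2 were higher and 2 lower with PI3Kdi. Without IL-2, 7 of 15 were higher and 0 lower, with a median log2 fold change of 0.95. The shares of this list called were 63.6%, 36.4% and 46.7% in these comparisons. Cxcr3, the receptor for the interferon-induced chemokines CXCL9 and CXCL10, was called higher in both, at 19.3 ± 2.96 against 6.67 ± 1.11 FPKM with PI3Kdi and at 279 ± 2.94 against 55.5 ± 14.1 FPKM without IL-2. Ccr8 and Cxcr5 were lower with PI3Kdi and higher without IL-2. For Ccr8 the levels were 0.19 ± 0.104 against 2.01 ± 0.629 FPKM with PI3Kdi and 7.53 ± 1.24 against 1.71 ± 0.755 FPKM without IL-2. Those of Cxcr5 were 1.35 ± 0.386 against 3.19 ± 0.361 FPKM and 1.46 ± 0.39 against 0.193 ± 0.0289 FPKM.

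Selectin ligands and the enzymes that build them had 5 higher and 6 lower of 14 on activation, 2 higher and 1 lower with PI3Kdi, and 4 higher and 3 lower without IL-2, which is 78.6%, 21.4% and 50% of the list beside 48.7%, 5.14% and 28.2% of all mRNA. The sialyltransferase St3gal6 was higher in both of the latter, at 9.0 ± 1.25 against 3.3 ± 0.574 FPKM and at 39.1 ± 7.85 against 4.53 ± 1.04 FPKM. The sialyltransferase St3gal1 was lower with PI3Kdi, at 4.26 ± 0.371 against 8.84 ± 0.608 FPKM, and higher without IL-2, at 30.5 ± 6.40 against 11.9 ± 4.76 FPKM. The fucosyltransferase Fut4 was higher with PI3Kdi, at 3.79 ± 0.862 against 0.867 ± 0.294 FPKM, and lower without IL-2, at 0.86 ± 0.052 against 6.22 ± 0.685 FPKM. Of 7 partners of CD44 in the first table, 2 were higher and 3 lower on activation and 2 were lower with PI3Kdi, and of 8 in CTL, 1 was higher without IL-2.

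Of 6 genes of adhesion ligands, 5 were lower on activation. With PI3Kdi Pecam1 was higher, at 6.24 ± 1.78 against 2.76 ± 0.647 FPKM, and Cd226, a receptor for nectin-like ligands, was lower, at 3.29 ± 1.80 against 10.8 ± 3.30 FPKM. Without IL-2, 3 of 7 were higher and 1 lower, with Pecam1 at 55.2 ± 6.34 against 27.4 ± 4.27 FPKM and Cd226 at 58.7 ± 3.15 against 15.3 ± 2.87 FPKM. Of 29 genes that carry the signal of chemoattractant receptors, 17 were lower and 3 higher on activation, and 1 was lower with PI3Kdi. That gene, Rgs16, a GTPase-activating protein for G protein α subunits, had 7.42 ± 2.75 against 23.4 ± 2.76 FPKM with PI3Kdi, and it was also lower without IL-2, at 6.02 ± 0.62 against 12.7 ± 1.94 FPKM. In CTL, 2 of 30 genes of this list were higher and 1 lower. The list had 69.0% called on activation beside 48.7% of all mRNA, but 3.45% beside 5.14% with PI3Kdi and 10% beside 28.2% without IL-2. Of 19 transcription factors and TGF-beta receptors known for acting on homing genes, 11 were lower and 3 higher on activation, 1 was higher and 2 lower with PI3Kdi, and 5 were higher and 1 lower without IL-2, shares of 73.7%, 15.8% and 31.6%. Klf2 was the one that rose in both, and Eomes, a T-box factor of effector and memory CD8+ cells, the one lower in both, at 5.99 ± 2.12 against 17.0 ± 6.01 FPKM with PI3Kdi and at 14.0 ± 5.89 against 114 ± 44.5 FPKM without IL-2.

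**Figure D5:**
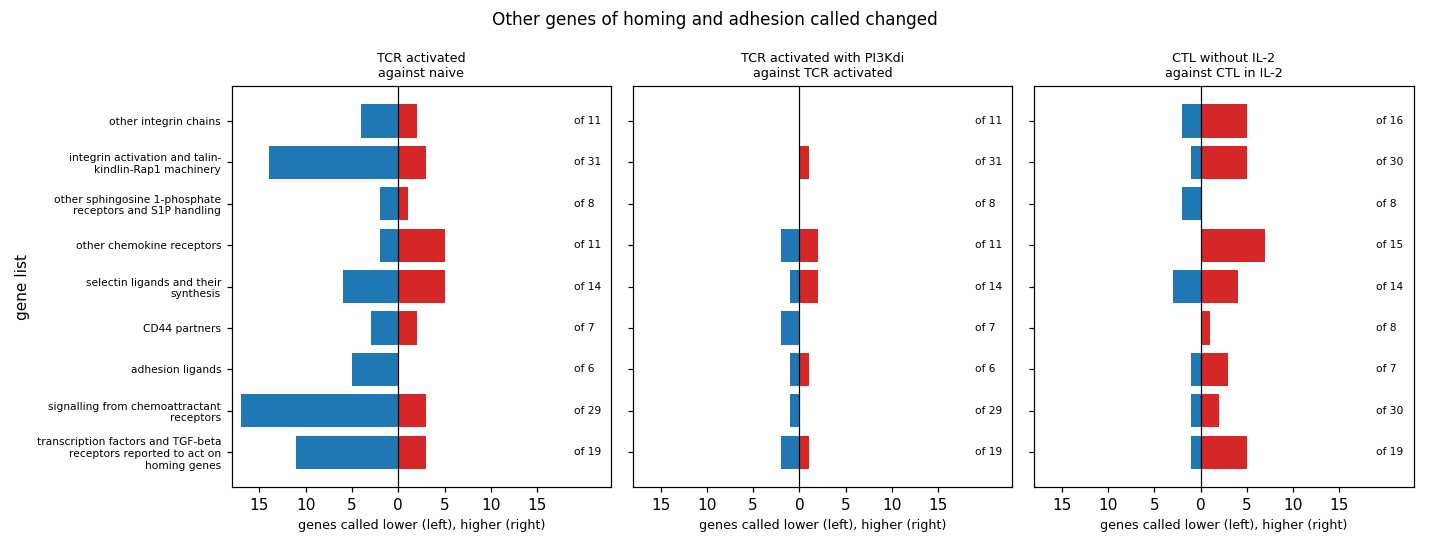
Number of genes of each list called lower (blue, to the left) and higher (red, to the right) in 3 comparisons, with the number of the list that the table holds at the right edge. Activation lowered more genes than it raised in every list but other chemokine receptors, PI3Kdi gave 0 to 4 calls a list, and all 7 calls among other chemokine receptors without IL-2 were upwards.

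The mRNA most alike in pattern were found by the Pearson correlation of log2(FPKM + 0.1) over the 9 libraries of the first table, among 9625 mRNA with a mean of at least 1 FPKM in both tables. These libraries fall into 3 groups that the correlation mostly follows, so it is a description. The closest to S1pr1 was Pnpla7 (r = 0.998 over 9 libraries, 0.977 over the 6 CTL libraries), and the closest to S1pr4 was Calcoco1 (0.997 and 0.988). Itgb7 was closest to Lbh (0.998 and 0.976), Itga4 to 4933421E11Rik (0.998 and 0.920) and Itgae to Dyrk1a (0.999 and 0.910). Ccr7 had the least close neighbour, Gng2, a G protein γ subunit (0.960 and 0.928). For Cxcr4, Itgal and Cd44 the closest mRNA in the first table did not keep the likeness in CTL: Ggcx had r = 0.579 with Cxcr4, C78339 had -0.844 with Itgal and Nfkb1 had -0.732 with Cd44 over the 6 CTL libraries. Stat5a, the second closest to Cd44, had 0.992 and 0.965.

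The cells were checked against their markers. The summed FPKM of the 5 CD8 and CD3 genes Cd8a, Cd8b1, Cd3e, Cd3d and Cd3g was 3189 to 3482 in naïve, 637 to 685 in TCR activated and 811 to 953 in PI3Kdi libraries, and 971 to 1042 and 1876 to 2069 in CTL with and without IL-2. Cd4 was not in the first table. The 4 B cell markers in the first table summed to 20.9 to 26.3 FPKM in naïve cells, 4.63 to 7.12 FPKM after activation and 3.3 to 4.58 FPKM with PI3Kdi, and in CTL the single one present, Cd79b, had 2.74 to 6.30 FPKM with and 10.8 to 20.6 FPKM without IL-2. The 2 dendritic cell markers present in the first table summed to 1.41 to 5.22, 3.86 to 9.0 and 0.60 to 1.20 FPKM, and the 2 present in CTL summed to 17.3 to 20.7 and 17.2 to 21.5 FPKM. Within that CTL sum the markers went opposite ways: Itgax had 0.21 to 0.39 FPKM with and 3.67 to 5.17 FPKM without IL-2, whereas H2-Ab1 had 17.1 to 20.4 FPKM with and 12.4 to 16.3 FPKM without it. Of 5 myeloid markers, Itgam alone was present, at up to 0.30 FPKM in the first table, 0.20 to 0.39 FPKM in CTL in IL-2 and 3.89 to 4.46 FPKM without it. Of the CD4 T cell markers, Zbtb7b was at 1.16 FPKM or less in the first table. In CTL both together had 16.8 to 21.4 FPKM in IL-2 and 25.6 to 30.2 FPKM without it. Most of this sum was Zbtb7b, at 16.7 to 21.0 FPKM in IL-2 and 24.6 to 28.3 FPKM without it. Cd4 itself had 0.05 to 0.39 FPKM in IL-2 and 0.92 to 1.92 FPKM without it. Of 4 markers of stroma and endothelium only Pecam1, which T cells also express, was present, at 55.6 to 66.0, 2.25 to 3.49 and 4.73 to 8.20 FPKM in the first table and at 22.5 to 30.5 and 50.3 to 62.4 FPKM in CTL with and without IL-2. In CTL, 1 of 3 NK cell markers was present, at 1.20 to 1.88 FPKM with and 2.17 to 3.41 FPKM without IL-2, and 0 of 6 erythroid and platelet markers were in either table. Several of these lists moved in the direction of the receptors, and their part in the results was not tested.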

How the data were processed

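The receptors and the gene lists were chosen with earlier results of these data known. The authors deposited FPKM for 9 libraries of naïve and activated cells and for 6 libraries of CTL, rounded to 2 decimals. According to the methods and the submitters' processing notes, reads were aligned to mm10 with STAR 2.5.2b, counted per gene with Subread 1.5.1, filtered by expression, TMM-normalised in edgeR and divided by exon length. For the CTL table the same steps were assumed. The 1039 blank cells of the first table were read as 0. Read totals per library were not given in the sources used here, so no count test was run and a weak mRNA is less certain by an unknown amount.

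Log2(FPKM + 0.1) was fitted with limma 3.58.1 (R 4.3.3, intensity trend), each table apart, with groups taken from the labels. P-values were adjusted by Benjamini-Hochberg over all mRNA of a table. The fits were tested on simulated data. The methods derive 3 replicates of P14 CTL from 3 mice but do not describe the cultures without IL-2, so p-values of the CTL table may reflect technical spread if its replicates shared an animal. Shares were compared by exact permutation. Tables were handled in Python 3.11.15 with scipy 1.17.1, numpy 2.4.6 and pandas 2.3.3. Genes outside the 9 were named if called with PI3Kdi and without IL-2, if among the 3 most alike, or as Klf2, Foxo1 and Cd69. One other gene that this rule names is not reported here. The alternatives were a pseudocount of 1 or 0.01, a mean of at least 1 FPKM, median scaling, a replicate block, no trend, other fold limits, fitting only the groups compared, and leaving out each replicate. By the methods, replicate numbers pair the first table through the split pools. Deviations from group means, over 10072 mRNA, correlated at 0.20 to 0.51 between same-numbered TCR and PI3Kdi libraries. Same-numbered naïve and TCR libraries gave -0.18 to 0.23, while naïve replicate 3 and TCR replicate 1 gave 0.38. Same-numbered naïve and PI3Kdi libraries gave -0.02 to 0.03, so in this table the pairing was seen only between the activated groups. In CTL same-numbered libraries gave 0.12 to 0.26 over 10263 mRNA.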

Additional observations from a re-analysis of the deposited data

How the results depend on the processing

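Of 351 recomputed fold changes of the 9 receptor mRNA, 344 kept their direction and their call, which needs both limits. Among these the limma adjusted p alone crossed 0.05 for Ccr7, Cd44 and Itgal, where the fold limit was not passed. Without replicate 2 it was 0.143 for Ccr7 with PI3Kdi against TCR activation and 0.053 for Ccr7 on activation. It was also 0.079 for Cd44 with PI3Kdi against naïve cells and 0.072 for Itgal without IL-2. Median scaling gave 0.034 for Itgal with PI3Kdi against TCR activation. The 4 that turned sign were small differences between PI3Kdi and TCR activation alone: S1pr1 at -0.011 under median scaling and between -0.42 and 0.66 without one replicate, with -0.20 without replicate 2, and Itgae between -0.16 and 0.29, with -0.16 without replicate 2. S1pr4 missed the limits with a pseudocount of 1 and without replicate 2, and Cxcr4 passed them without replicate 1, so between 2 and 4 of the 9 changed with PI3Kdi when a replicate was left out. The cause was not tested. The Ccr7 share with PI3Kdi against TCR activation alone ranged from -0.67 to 0.12 percentage points without one replicate, at 0.042 without replicate 2 and 0.12 without replicate 3. The replicate block gave 8, 3, 7 and 7 changed receptors in the 4 comparisons and changed no call. Among all mRNA, PI3Kdi changed 579, against 311 with a pseudocount of 1, 323 without replicate 2, 1120 with a fold limit of 1.5 and 1975 with none. With no fold limit the counts were 9096 in place of 5490 for TCR activation, 8906 in place of 5063 for PI3Kdi against naïve and 8056 in place of 3166 without IL-2, and with a limit of 1.5 the last was 5657. The depth of each library is unknown, and values near or under 1 FPKM, such as those of Itgae and Cxcr4 in activated cells, are the least certain.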
